A study of Mus musculus with 8 samples.

Results

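The 56 genes described here build and steer the actin cytoskeleton, the filament network that shapes the phagocytic cup and the motile processes of microglia. They were chosen by symbol and role: actins, monomer-binding and severing proteins, the Arp2/3 complex, capping proteins, coronins, the WASP and WAVE proteins, cross-linkers, membrane linkers, myosin II and adhesion proteins, with Rac1, Rac2, Cdc42, Rhoa, Arhgdib and Diaph1. Each symbol matched 1 row among the 35583 genes of the deposited count table, and all 56 were among the 13277 genes that passed the expression filter and were tested. Young wild-type mice had been injected with plasma protein carrying a dye, and 20 hours later microglia were sorted from their hypothalamus. Plasma-positive microglia were compared with plasma-negative microglia, in 4 libraries each, to see which transcripts differ between cells sorted with and without the label. Both groups thus come from injected mice. Nothing in the labels ties a library to an animal, so p-values measure the spread between these libraries, which may be technical.

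Actin exists as free monomers and as filaments, and cells remodel their surface by moving subunits between these pools. Thymosins and profilin hold monomers, cofilin and its cofactor Wdr1 take filaments apart, and capping proteins stop growth at the fast-growing end. Cdc42 and Rac switch on WASP and WAVE, which drive the Arp2/3 complex to nucleate the branched filaments that push the membrane around a particle, while formins and myosin II build and contract unbranched bundles. Microglia use this machinery to survey the tissue and to engulf debris, and Aif1, the Iba1 antigen used to stain them, is itself an actin-bundling protein.

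Read counts per library ran from 2963094 to 21422738, with the smallest total in plasma-negative replicate 4, and levels are given as CPM, counts scaled to the library total with TMM factors. All 9 microglial markers were detected, 1 of them was called higher by edgeR, and their summed level overlapped, at 59195 to 69984 CPM in the plasma-negative group and 65294 to 70335 CPM in the plasma-positive group. Plasma-positive replicate 3 held 531 CPM of 7 monocyte and neutrophil markers, chiefly S100a8 and S100a9, against at most 13.8 CPM in any other library, with Ly6g at 0 in all. Plasma-positive replicate 2 had the highest sums of 6 neuronal markers, 254 CPM against at most 63.7 in the other libraries, and of 6 oligodendrocyte markers, 514 CPM against at most 302.2. The oligodendrocyte sum was also higher across the groups, at 182.5 ± 32.9 and 329 ± 128 CPM (SD, n = 4; log2 ratio 0.85). It overlapped between them, while its marker Cnp did not, at 68.9 to 123 and 153 to 182 CPM. No marker of that list was called, and its part in the results was not tested. The 5 astrocyte markers were the list whose sums did not overlap, at 208 to 319 CPM without the label and 188 to 199 CPM with it, nearly all of it Slc1a3, and their part was not tested either. Values without plasma-positive replicates 2 and 3 are given after the lengths. None of the monocyte and neutrophil markers passed the expression filter, so none was tested. The gene counts made up 70.4% ± 2.8 of the read total used for the deposited RPKM values without the label and 83.3% ± 1.3 with it (SD, n = 4), without overlap, and its part in the results was not tested.

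The transcripts called higher in plasma-positive microglia were Actb, the monomer binders Tmsb4x and Pfn1, the severing factor Cfl1, the Arp2/3 subunit Arpc4 and the GTPases Cdc42 and Rac2. These 7 of 56 members rose by 0.36 to 0.72 on the log2 scale, and edgeR called 0.844% of all tested genes higher, or 1.41% in either direction. No member was called lower by edgeR, DESeq2 or limma-voom, and since edgeR called 0.565% of all tested genes lower, a count of 0 among 56 is near the background. At an unadjusted p under 0.05 edgeR had 27 members higher, against 7.13% of all tested genes, and 1 lower (Myh9), against 6.67%. The median log2 change was 0.31 over the 56 members and 0.01 over all tested genes, and 47 members had a positive and 9 a negative sign. A positive sign was seen in 50.4% of all tested genes. In 22 members all 4 plasma-positive libraries lay above all 4 plasma-negative ones, an order seen in 5.68% of all tested genes, and no member showed the reverse order, seen in 4.59%. The members are more abundant than most genes. Among the 34 at 100 CPM or more, 7 (20.6%) were called higher, against 5.15% of all 1670 tested genes at that level, where the median change was 0.13 and 2.28% were called lower. In 18 of the 34 the groups did not overlap, against 18.6% of those genes, and none had the reverse order, against 7.96%. With an offset for exon length and GC content, added to the same fit, Cfl1 alone was called, as given with the lengths. In these bulk libraries a change in the number of cells of a type and a change in RNA per cell cannot be told apart.

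**Figure D1:**
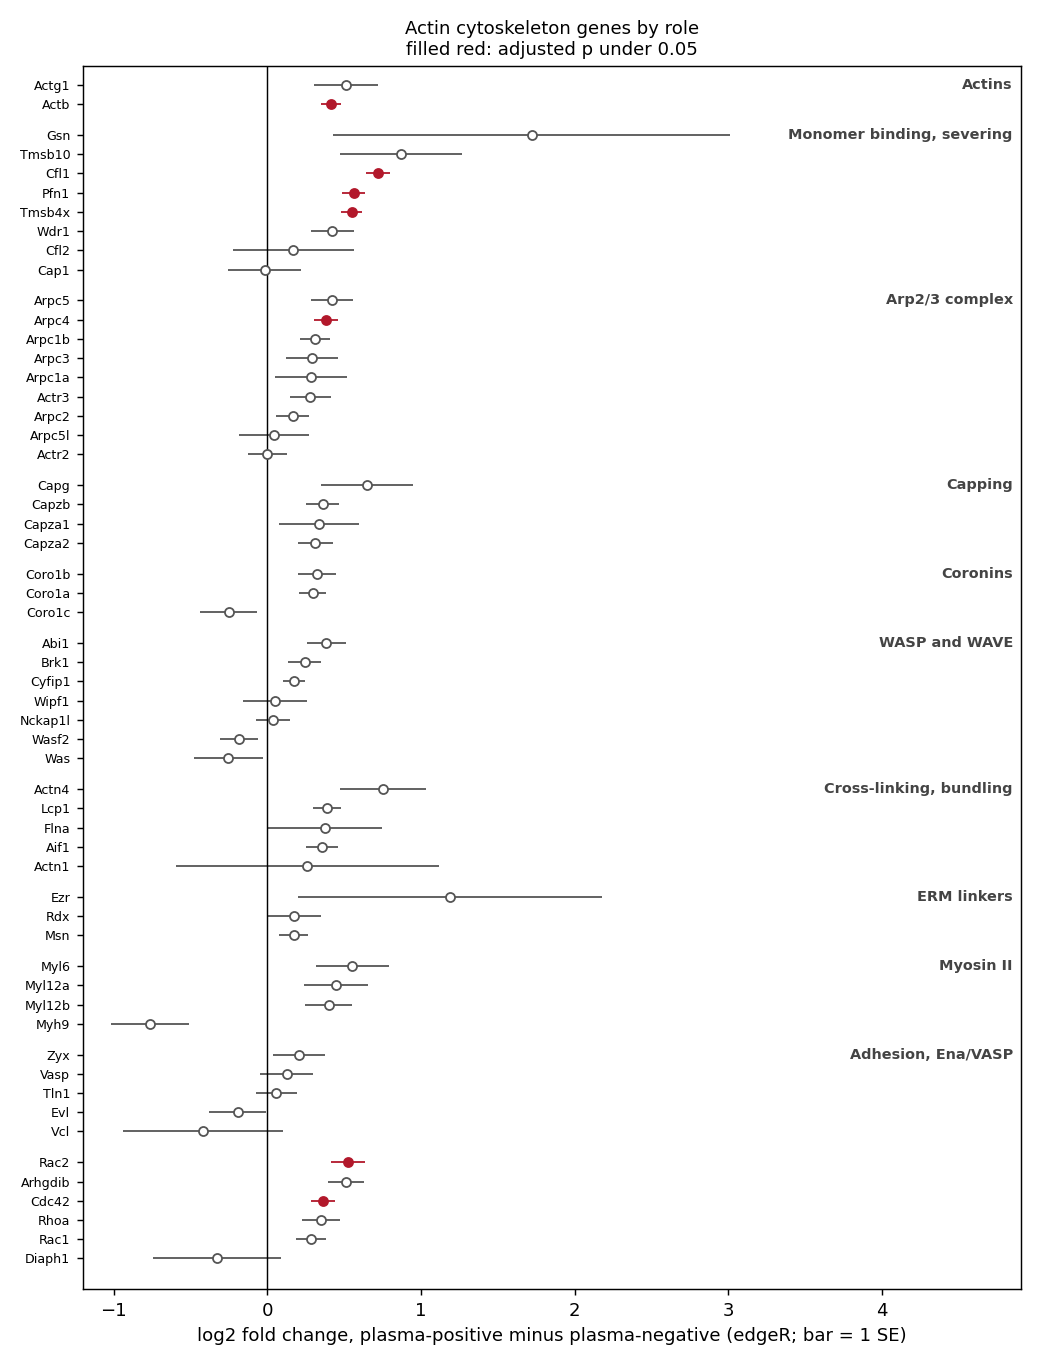
Log2 fold change of each of the 56 genes, plasma-positive minus plasma-negative, grouped by role. Points are edgeR estimates, bars are 1 SE, and filled red points mark the 7 genes with an adjusted p under 0.05, which lie between 0.36 and 0.72. The widest bars belong to Gsn, Ezr and Actn1, which have few reads, and the lowest 6 genes carry no role label.

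Of the actins, the cytoplasmic beta-actin gene Actb (ENSMUSG00000029580) lies on chromosome 5 from 142903115 to 142906754. It stood at 5317, 5590, 5463 and 5733 CPM in plasma-negative replicates 1 to 4 and at 8369, 7365, 6544 and 7145 CPM in plasma-positive replicates 1 to 4. Every plasma-positive library was above every plasma-negative one, with the highest level in plasma-positive replicate 1. The log2 change was 0.41, SE 0.06 (edgeR, adjusted p = 0.0103). Actg1, which encodes the near-identical gamma-actin, stood at 33.3, 29.9, 28.8 and 30.3 CPM in plasma-negative libraries and at 42.8, 42.5, 45.02 and 44.1 CPM in plasma-positive ones. Its groups did not overlap either, but its log2 change of 0.51 had an SE of 0.21 (edgeR, adjusted p = 0.29). Of the 50-base words in Actg1 transcripts, 37.4% also occur in transcripts of other genes, against 9.12% for Actb, so its level is uncertain where reads could not be placed. The same holds for Capza1 (64.5%), Rac1 (50.3%), Tmsb10 (27.0%), Actr3 (26.3%), Vcl (25.1%) and Arpc1b (24.3%).

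Among the 8 monomer-binding and severing genes, edgeR called Cfl1, Tmsb4x and Pfn1 higher and no other. The share called higher was 0.844% of all tested genes and 5.15% of those at 100 CPM or more. In 5 of the 8 all plasma-positive libraries lay above the plasma-negative ones. That order was seen in 5.68% of all tested genes and 18.6% of those at 100 CPM or more. Cfl1, the non-muscle cofilin (ENSMUSG00000056201, chromosome 19, 5490455 to 5495201), stood at 419, 471, 418 and 424 CPM in plasma-negative libraries and at 712, 710, 754 and 676 CPM in plasma-positive ones. Its lowest plasma-positive value was 676 CPM and its highest plasma-negative value 471 CPM. The log2 change of 0.72 had an SE of 0.08 (edgeR, adjusted p = 0.00234). Exons of Snx32 overlap 16.5% of Cfl1's exon length, and Snx32 itself had 30.8 ± 3.3 and 52.5 ± 4.4 CPM in the 2 groups (SD, n = 4).

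Tmsb4x, the main monomer-sequestering thymosin (ENSMUSG00000049775, chromosome X, 167207093 to 167209315), stood at 4282, 4601, 4419 and 5468 CPM in plasma-negative libraries and at 6807, 6749, 6793 and 7077 CPM in plasma-positive ones. Plasma-negative replicate 4 was nearest to the plasma-positive group. The log2 change was 0.55, SE 0.07 (edgeR, adjusted p = 0.00432). Pfn1, the profilin that feeds monomers to growing filaments (ENSMUSG00000018293, chromosome 11, 70651850 to 70654644), stood at 426, 436, 450.0 and 430.4 CPM and at 620, 661, 646 and 643 CPM in the same order. Both groups were tight, with SDs of 10.4 and 17.1 CPM (n = 4). Pfn1 rose by 0.56 on the log2 scale, SE 0.07 (edgeR, adjusted p = 0.00489).

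The other 5 genes of this role did not pass. The second thymosin Tmsb10 stood at 8.28, 8.87, 10.3 and 7.07 CPM in plasma-negative libraries and at 14.6, 15.8, 20.96 and 11.8 CPM in plasma-positive ones, without overlap, at a log2 change of 0.87 (SE 0.40; edgeR, adjusted p = 0.362). Its plasma-negative values rest on 21 to 187 counts. The muscle-type cofilin Cfl2 stood at 14.3, 16.4, 30.3 and 27.6 CPM against 24.3, 29.99, 11.8 and 33.1 CPM, with full overlap between the groups and a log2 change of 0.17. Wdr1 had a change of 0.42 without overlap between groups (edgeR, adjusted p = 0.181). The monomer-recycling protein Cap1 had -0.02, and the severing and capping protein Gsn 1.72 with an SE of 1.29 and between 0 and 413 counts per library.

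**Figure D2:**
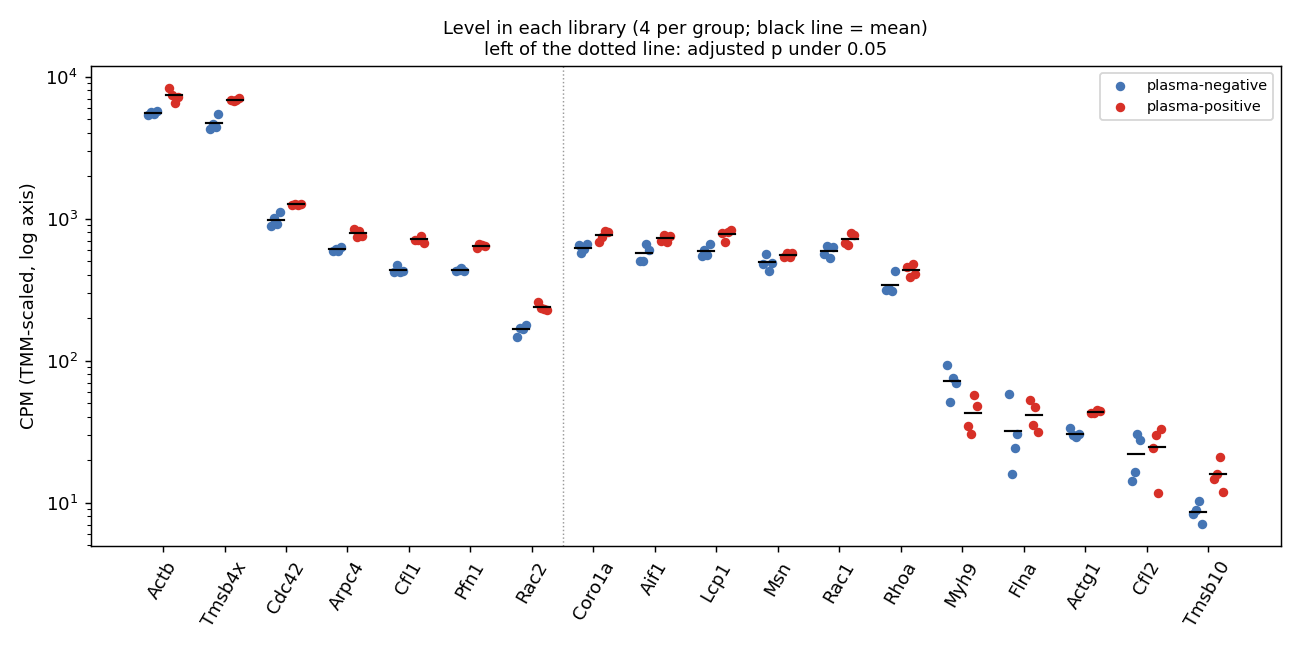
CPM of 18 of the genes in each library on a log axis, with the 4 plasma-negative libraries in blue, the 4 plasma-positive libraries in red and the group mean as a black line. The 7 genes left of the dotted line had an adjusted p under 0.05, and in each of them the red points lie above the blue points. Myh9 is the gene with red points mostly below the blue ones, and its groups overlap.

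Compared per kilobase of exon, Tmsb4x was the most abundant member in both groups, at 3423 ± 389 and 5001 ± 109 CPM per kilobase (SD, n = 4), followed by Actb at 2063 ± 66.2 and 2746 ± 283. The values of these 2 genes did not overlap in either group. Next came Aif1 at 371 ± 52.5 and 475 ± 27.0, Cdc42 at 330 ± 33.6 and 424 ± 4.2, and Arpc4 at 262 ± 8.5 and 341 ± 21.3. Aif1 and Cdc42 in the plasma-negative group did not differ beyond their spread. Tmsb10 and Actg1, by contrast, had 6.76 ± 1.05 and 11.5 ± 0.7 CPM per kilobase in plasma-negative libraries. The lowest member was the alpha-actinin Actn1 at 0.242 ± 0.097.

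Promoters of 4 called genes and of Actg1 are shown because the latter and Arpc4 hold a CArG box and the other 3 do not. SRF, the transcription factor that drives many actin genes, binds the CArG box, which reads CC, then A or T in 6 places, then GG. Windows of 300 bases, from 250 before to 50 after the start of transcription, were taken from RefSeq (build GRCm38.p6) and matched 48 of the 56 genes, all but Actb, Rac1, Rac2, Nckap1l, Coro1b, Cyfip1, Arpc5l and Diaph1. Capitals mark a CArG box, sequences run 5′ to 3′ along the gene's strand, and the windows of Cfl1, Tmsb4x, Pfn1, Arpc4 and Actg1 lie at chr19:5490205-5490504 (plus strand), chrX:167209169-167209468 (minus), chr11:70654601-70654900 (minus), chr6:113377863-113378162 (plus) and chr11:120348446-120348745 (minus).
Cfl1: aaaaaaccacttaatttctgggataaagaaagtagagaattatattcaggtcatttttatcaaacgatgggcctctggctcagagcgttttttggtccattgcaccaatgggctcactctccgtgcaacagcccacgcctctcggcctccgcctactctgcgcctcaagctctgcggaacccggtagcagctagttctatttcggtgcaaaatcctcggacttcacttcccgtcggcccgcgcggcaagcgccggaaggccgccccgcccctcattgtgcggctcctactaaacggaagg
Tmsb4x: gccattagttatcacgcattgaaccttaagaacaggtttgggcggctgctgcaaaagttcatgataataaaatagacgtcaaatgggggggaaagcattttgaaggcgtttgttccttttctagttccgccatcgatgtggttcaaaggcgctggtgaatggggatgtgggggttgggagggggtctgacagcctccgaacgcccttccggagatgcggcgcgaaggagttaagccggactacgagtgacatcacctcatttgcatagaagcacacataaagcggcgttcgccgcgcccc
Pfn1: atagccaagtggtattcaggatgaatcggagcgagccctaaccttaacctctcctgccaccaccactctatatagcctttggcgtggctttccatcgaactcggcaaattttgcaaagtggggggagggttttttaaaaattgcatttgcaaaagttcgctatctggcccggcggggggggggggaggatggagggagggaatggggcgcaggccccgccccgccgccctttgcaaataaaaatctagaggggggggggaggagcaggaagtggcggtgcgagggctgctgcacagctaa
Arpc4: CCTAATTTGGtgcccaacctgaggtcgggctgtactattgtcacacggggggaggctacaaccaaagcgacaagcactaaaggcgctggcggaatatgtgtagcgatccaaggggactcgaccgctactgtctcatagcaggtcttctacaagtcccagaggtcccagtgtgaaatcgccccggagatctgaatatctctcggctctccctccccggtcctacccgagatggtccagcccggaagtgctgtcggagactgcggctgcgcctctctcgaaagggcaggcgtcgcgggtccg
Actg1: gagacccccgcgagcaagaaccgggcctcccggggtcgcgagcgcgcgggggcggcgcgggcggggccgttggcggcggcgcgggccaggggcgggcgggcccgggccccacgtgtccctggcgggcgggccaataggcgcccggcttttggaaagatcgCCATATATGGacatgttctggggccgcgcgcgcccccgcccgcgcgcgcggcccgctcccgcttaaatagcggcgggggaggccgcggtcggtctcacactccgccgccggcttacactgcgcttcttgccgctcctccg
Actg1 holds the box CCATATATGG, starting 90 bases before the start, and Arpc4 holds CCTAATTTGG at the outer edge of the window, 250 bases before it. The windows of Cfl1, Tmsb4x and Pfn1 hold none, and neither does that of Cdc42, the other called gene with a window. Of the 48 genes, 2 more hold one, Vcl with CCTTATAAGG starting 227 bases before the start and Myl6 with CCTTATATGG starting 50 bases before 1 of its 2 starts. The box is thus present in 4 of 63 member windows (6.35%) and in 535 of all 32851 windows (1.63%), counted on both strands, since it reads as a CArG box on either. Log2 changes of these 4 genes were 0.51 for Actg1, 0.38 for Arpc4, 0.55 for Myl6 and -0.42 for Vcl, and Arpc4 alone among them was called. The letters GAGGAAGT, a core bound by the myeloid factor PU.1 and searched on both strands, were found in 1 member window (Arpc1b) and in 3.20% of all windows.

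The Arp2/3 complex nucleates branched filaments, and 1 of its 9 measured subunit genes was called higher. Of all tested genes 0.844% were called higher, and of those at 100 CPM or more 5.15%. At an unadjusted p under 0.05 in edgeR there were 3 subunit genes higher and 0 lower, against 7.13% and 6.67% of all tested genes. Arpc4, a core subunit that joins the complex together (ENSMUSG00000079426, chromosome 6, 113378115 to 113390448), stood at 593, 614, 590.4 and 633 CPM in plasma-negative libraries and at 848, 742, 816 and 759 CPM in plasma-positive ones. The groups did not overlap, and the log2 change was 0.38, SE 0.08 (edgeR, adjusted p = 0.0322). Exons of Ttll3 overlap 12.2% of its exon length, and Ttll3 was lower in reads, at 136 ± 5.5 and 165 ± 9.4 CPM (SD, n = 4). Arpc1b and Arpc5 also had no overlap between groups, with log2 changes of 0.31 and 0.42 (edgeR, adjusted p = 0.164 and 0.172). This order was seen in 5.68% of all tested genes and in 18.6% of those at 100 CPM or more. The remaining subunits overlapped, from 0.29 for Arpc3 and 0.28 for Arpc1a and Actr3 through 0.16 for Arpc2 and 0.04 for Arpc5l to -0.0003 for Actr2. Actr2 and Arpc5l had the 2 values nearest to 0, and the sign of both changed with the scaling used. Summed over the 9 genes the level was 2425 ± 111 CPM against 2879 ± 132 CPM (SD, n = 4), without overlap.

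The genes that activate the complex had log2 changes of both signs. None of the 7 WASP and WAVE genes was called by edgeR or DESeq2, which for so few genes is near the 0.844% that edgeR called higher over all tested genes, and limma on log2(RPKM + 1) called Brk1. At an unadjusted p under 0.05 there were 3 higher and 0 lower, against 7.13% and 6.67% of all tested genes, and their log2 changes had a median of 0.05. Abi1, Brk1 and Cyfip1 of the WAVE complex had no overlap between groups, at 0.38, 0.24 and 0.17 (edgeR, adjusted p = 0.188, 0.342 and 0.319). The leukocyte WAVE subunit Nckap1l had 0.04 and the WASP partner Wipf1 0.05. The scaffold Wasf2 and the blood-cell activator Was had -0.18 and -0.25, and their groups overlapped. The summed level of 2208 ± 99.3 and 2345 ± 51.9 CPM overlapped as well.

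Cdc42 and Rac2, which act upstream of WASP and WAVE, were both called higher, as were 0.844% of all tested genes. Cdc42, which switches on WASP and filopodia (ENSMUSG00000006699, chromosome 4, 137319696 to 137357720), stood at 887, 1012, 910 and 1104 CPM in plasma-negative libraries and at 1248, 1275, 1249 and 1261 CPM in plasma-positive ones. Plasma-negative values were more widely spread, with SDs of 99.8 and 12.4 CPM (n = 4). The log2 change was 0.36, SE 0.08 (edgeR, adjusted p = 0.0446). Rac2, the blood-cell Rac (ENSMUSG00000033220, chromosome 15, 78559167 to 78572783), stood at 147, 171, 168 and 177 CPM and at 258, 235, 231 and 228 CPM. It rose by 0.53 on the log2 scale, SE 0.11 (edgeR, adjusted p = 0.043).

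The ubiquitous Rac1 stood at 564, 642, 525 and 634 CPM in plasma-negative libraries and at 674, 649, 788 and 769 CPM in plasma-positive ones, without overlap by a narrow margin. Its log2 change of 0.28 did not pass (edgeR, adjusted p = 0.203), and 51.4% of its exon length overlaps exons of Daglb, which stood at 917 ± 38.4 and 1048 ± 102 CPM (SD, n = 4). Rhoa, which drives contraction, stood at 312, 319, 308 and 424 CPM against 453, 387, 482 and 410 CPM. Plasma-negative replicate 4 lay inside the plasma-positive range, and the log2 change of 0.35 did not pass (edgeR, adjusted p = 0.223). Arhgdib was nearest to the threshold among members not called, at 0.51 without overlap (edgeR, adjusted p = 0.0556), and DESeq2 called it at an adjusted p of 0.00184. The formin Diaph1 had -0.33 with an SE of 0.42.

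None of the 4 capping and 3 coronin genes was called by edgeR, near the background of 0.844%. All 4 capping genes had positive log2 changes, from 0.31 for Capza2 and 0.34 for Capza1 to 0.36 for Capzb and 0.65 for Capg, and all 4 overlapped between groups. At an unadjusted p under 0.05 there were 2 of the 4, against 7.13% of all tested genes higher, and DESeq2, which called 2.5% of them higher, called Capzb. Coro1a, the leukocyte coronin that is recruited to forming phagosomes, stood at 648, 571, 609 and 665 CPM in plasma-negative libraries and at 687, 747, 819 and 802 CPM in plasma-positive ones. Its groups did not overlap and its log2 change was 0.29, SE 0.09 (edgeR, adjusted p = 0.132). DESeq2 called it at an adjusted p of 0.0367. Coro1b had 0.32 and Coro1c, the coronin gene with the longest merged exons at 9664 bases, had -0.25.

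Of the 5 cross-linking genes none passed in edgeR, near the background of 0.844%, and 3 had no overlap between groups, an order seen in 5.68% of all tested genes and 18.6% of those at 100 CPM or more. Lcp1, the leukocyte bundler L-plastin, stood at 549, 603, 557 and 667 CPM in plasma-negative libraries and at 792, 684, 804 and 824 CPM in plasma-positive ones, with a log2 change of 0.39 and an SE of 0.09 (edgeR, adjusted p = 0.0639). Aif1 stood at 504, 501, 667 and 599 CPM and at 700, 772, 685 and 753 CPM, with a change of 0.36 and an SE of 0.10 (edgeR, adjusted p = 0.129). DESeq2 called both, at adjusted p of 0.00503 and 0.0361. The alpha-actinin Actn4 had 0.75 without overlap (edgeR, adjusted p = 0.242). Flna, the filamin that makes networks rigid, stood at 57.9, 15.9, 24.3 and 30.3 CPM against 53.1, 35.1, 46.9 and 31.3 CPM, with complete overlap and a log2 change of 0.37. Actn1 had no more than 37 counts in any library.

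The 3 membrane linkers showed no calls in edgeR, near the background of 0.844%, and none at an unadjusted p under 0.05. For so few genes the latter is near the 7.13% higher and 6.67% lower of all tested genes. Msn, the moesin that is the main linker of this family in leukocytes, stood at 482, 567, 427 and 490 CPM in plasma-negative libraries and at 533, 573, 537 and 568 CPM in plasma-positive ones, at a log2 change of 0.17 (edgeR, adjusted p = 0.485). Rdx had 0.17. Ezr was sparse, with 0 to 324 counts per plasma-negative library and 103 to 249 per plasma-positive one, and its change of 1.19 had an SE of 0.99.

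None of the 4 myosin II genes was called by edgeR, near the background of 0.844%, and at an unadjusted p under 0.05 there were 2 higher and 1 lower, against 7.13% and 6.67% of all tested genes. The light chains Myl6, Myl12a and Myl12b had log2 changes of 0.55, 0.45 and 0.40, of which Myl6 alone had no overlap between groups (edgeR, adjusted p from 0.257 to 0.373). The heavy chain Myh9 stood at 92.4, 51.4, 75.2 and 69.7 CPM in plasma-negative libraries and at 34.9, 30.2, 56.9 and 48.1 CPM in plasma-positive ones. Plasma-negative replicate 2 lay inside the plasma-positive range. Its log2 change of -0.76, the lowest among the members, had an SE of 0.26 (edgeR, adjusted p = 0.19). Exons of Myl12a and Myl12b are annotated as overlapping, and 21.1% of the 50-base words of Myl12a and 19.1% of those of Myl12b occur in other genes, so these values are not independent. The adhesion genes Tln1, Zyx, Vasp, Evl and Vcl ranged from -0.42 to 0.20 with a median of 0.06 and overlap in all 5. Exons of Ap3m1 overlap 25.5% of the exon length of Vcl, the lowest of them. Ap3m1 stood at 56.9 ± 7.6 and 46.3 ± 8.9 CPM, and Vcl at 10.6 ± 3.9 and 7.9 ± 3.1 CPM (SD, n = 4). No adhesion gene reached an unadjusted p under 0.05, which for 5 genes is near the 7.13% and 6.67% of all tested genes.

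**Figure D3:**
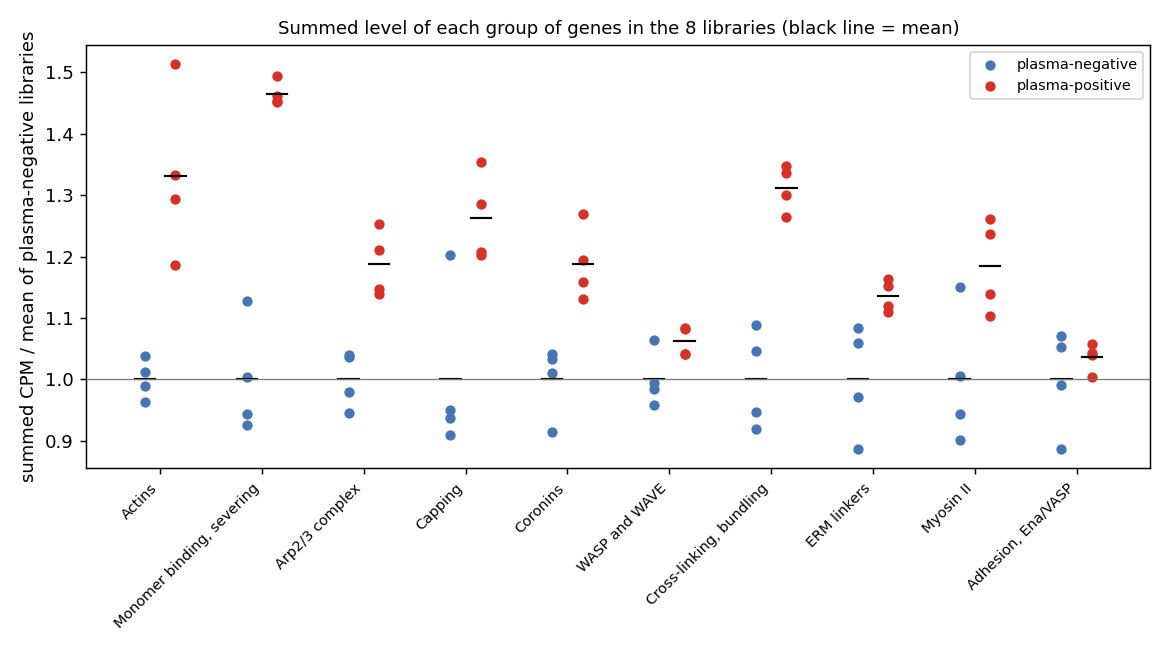
Summed CPM of 10 roles in the 8 libraries, divided by the mean of the 4 plasma-negative libraries, with blue points for plasma-negative, red points for plasma-positive and black lines for means. Red and blue points separate in 6 of the 10 roles shown and overlap for capping, WASP and WAVE, myosin II and adhesion genes.

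Summed over all 56 genes the level was 22574, 23885, 22954 and 25336 CPM in plasma-negative libraries and 31687, 30532, 30217 and 30478 CPM in plasma-positive ones. The groups did not overlap, and plasma-negative replicate 4 was the highest of its group. The members held 2.46% ± 0.07 of all counts against 2.94% ± 0.06 (SD, n = 4). Actb and Tmsb4x dominate these sums. Without them the sum was 13469 ± 547 and 16516 ± 265 CPM, a log2 ratio of 0.29 in place of 0.38.

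Pairs of related genes were compared within each library by the log2 ratio of their counts, which does not depend on scaling. None of 12 pairs passed in the exact two-sided permutation test over 70 assignments, for which the smallest p is 0.0286. After adjustment over the 12 pairs, a lone pair at that smallest p could not pass the threshold of 0.05. The test therefore cannot show that a ratio stayed the same. The ratio of Coro1a to Coro1c came closest, from 2.47 ± 0.26 to 3.02 ± 0.37 on the log2 scale (SD, n = 4; exact permutation p = 0.0571, adjusted over the 12 pairs 0.539). Cfl1 was called and Cfl2 was not, yet their ratio went from 4.36 ± 0.58 to 4.94 ± 0.73, a difference that did not pass (exact permutation p = 0.257, adjusted 0.539). The ratio of Rac1 to Rac2 went from 1.83 ± 0.13 to 1.59 ± 0.20 (exact permutation p = 0.114, adjusted 0.539). That of Actb to Actg1 was 7.49 ± 0.12 and 7.39 ± 0.18 (exact permutation p = 0.371, adjusted 0.557). Without plasma-negative replicate 3 the ratio of Arpc5 to Arpc5l differed by 0.52 (exact permutation p = 0.0286, the smallest with 3 against 4), against 0.31 with all libraries (exact permutation p = 0.229).

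The changes were ordered by merged exon length, which counts the exons of all transcripts of a gene and can exceed the length of any 1 transcript. The 7 called genes had merged exon lengths of 1371 to 3103 bases. None of the 25 members over 4000 bases was called by edgeR, which is near the 0.379% called higher among all tested genes of that length, and 9 of them were higher and 1 lower at an unadjusted p under 0.05, against 327 and 654 of all 6593 tested genes of that length. Lcp1, at 9504 bases, was called by DESeq2, by limma and by edgeR with upper-quartile factors, and limma-voom also called Capza2 at 5890 and Rhoa at 7494 bases. The median log2 change was 0.51 in the 5 members under 2000 bases, 0.37 in the 26 members of 2000 to 4000 bases and 0.17 in the 25 longer ones. Over all tested genes it was 0.09, 0.10 and -0.08 in these classes. Among tested genes at 100 CPM or more it was 0.32, 0.22 and 0.01, against 0.43, 0.39 and 0.23 for the 34 members at that level. The share called higher in those 3 classes was 14.0%, 8.33% and 1.77% of all such genes, and 1 of 4, 6 of 14 and 0 of 16 of the members. Across the 56 members the Spearman correlation of log2 change with length was -0.41. At 100 CPM or more it was -0.48 across the 34 members and -0.50 across all 1670 genes. Genes within the same libraries are not independent points, so these are descriptions.

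**Figure D4:**
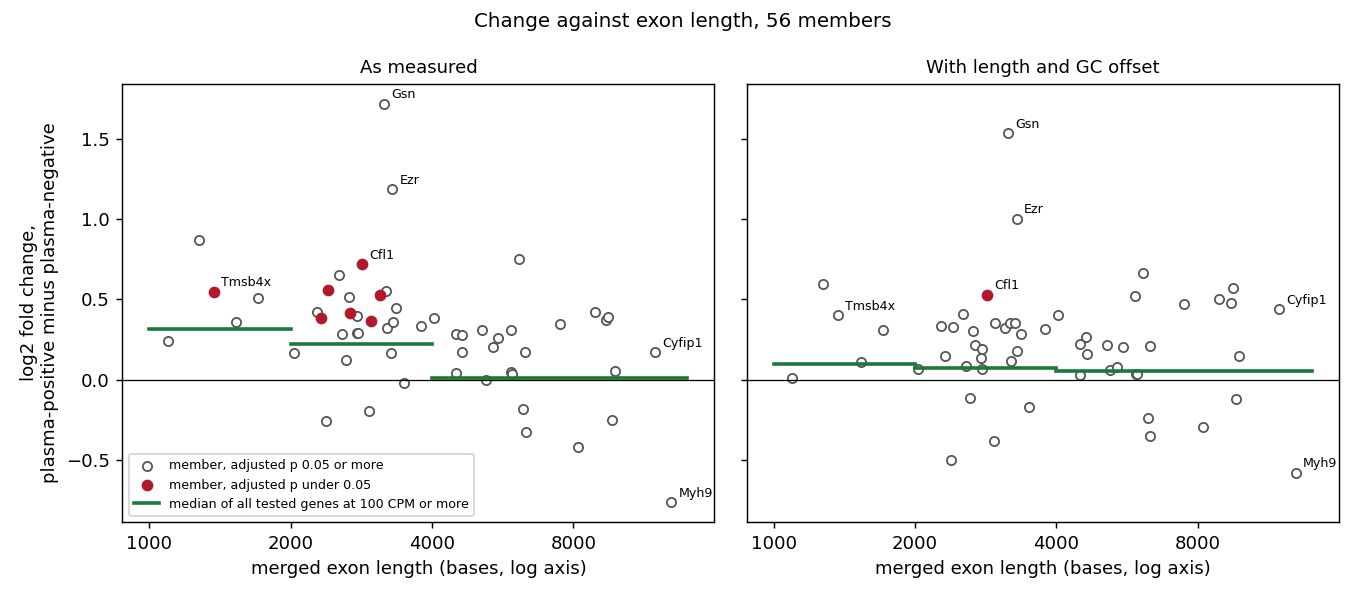
Log2 fold change of the 56 genes against merged exon length on a log axis, as measured (left) and with the length and GC offset (right). Filled red points have an adjusted p under 0.05, and green lines are medians of all tested genes at 100 CPM or more in 3 length classes. On the left all 7 red points lie below 4000 bases and the green line falls from 0.32 to 0.01, while on the right the green lines lie between 0.06 and 0.10 and Cfl1 is the red point.

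A smooth trend over exon length and GC content was therefore fitted in each library and used as an offset in the same edgeR test. It lowered the log2 change of 42 members, among them all 7 that had been called, and raised that of 14, of which 13 were over 4000 bases. Cfl1 stayed past the threshold at 0.53 (edgeR, adjusted p = 0.048), where 0.128% of all tested genes were called higher. Tmsb4x had 0.40, Cdc42 0.35, Pfn1 0.33, Rac2 0.32, Actb 0.22 and Arpc4 0.14 (edgeR, adjusted p from 0.167 to 0.627). Among the long genes Lcp1 went from 0.39 to 0.57 and Cyfip1 from 0.17 to 0.44, both at an adjusted p of 0.0753 in edgeR. Myh9 kept its negative sign at -0.58. The median over the 56 members was 0.21, against -0.04 over all tested genes and 0.07 over the abundant ones, and 47 members were still positive. The correlation with length was -0.04 across the 56 members, 0.12 across the 34 abundant ones and -0.05 across all abundant genes.

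Leaving out libraries changed calls more than fold changes. Actb, Cfl1, Tmsb4x and Pfn1 passed in edgeR whichever of the 8 libraries was left out, including plasma-positive replicate 2 or 3, which had the highest sums of neuronal and oligodendrocyte or of monocyte and neutrophil markers. With both of these left out Actb alone passed, at 0.49, while Cfl1 had 0.68, Tmsb4x 0.57 and Pfn1 0.54, close to their values with all libraries (edgeR, adjusted p = 0.0579, 0.0579 and 0.108). Arpc4 had 0.41, Rac2 0.56 and Cdc42 0.36 there. In that fit, with 2 libraries in the plasma-positive group, 0.0775% of all genes tested were called higher and 0.0282% lower. Arpc4, Rac2 and Cdc42 passed when plasma-negative replicate 4 was left out and in none of the other 7 fits, where adjusted p in edgeR reached 0.108, 0.128 and 0.119. Their log2 changes over the 8 fits stayed within 0.35 to 0.41, 0.47 to 0.56 and 0.32 to 0.43. Without plasma-negative replicate 4 there were 9 members called higher, with Capza2 and Lcp1 added (0.901% of all genes tested). That library had the highest plasma-negative level in 10 of the 22 members whose groups did not overlap, and over all 56 it was highest in 17, as was replicate 2, and lowest in 14. With the replicate number as a block, 4 members were called, and they were Tmsb4x, Cfl1, Pfn1 and Actb (0.392% of all tested genes were called higher). With the block and the length and GC offset together, 0 members were called, and 0.0151% of all tested genes were called higher and 0.0226% lower. Without the block, the offset gave 0.0678% lower.

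The number of members called moved with the tool, the scaling and the filter. DESeq2 called 12 members higher (2.5% of all tested genes), limma-voom 13 (1.9%), limma on log2(RPKM + 1) 13 (2.92%) and limma on log2(RPKM + 0.1) 12 (2.79%), each including the 7. With relative log expression factors there were 5 (0.678%), with upper-quartile factors 8 (1.06%), with library totals only 4 (0.482%), without a filter 4 (0.524%) and with a filter of 1 CPM in 4 libraries 7 (0.945%). None of these fits called a member lower, while the share of all tested genes called lower was 2.73% in DESeq2, 1.43% in limma-voom, 0.444% and 0.467% on the RPKM scales, 0.618%, 0.557% and 1.23% with the 3 scalings, and 0.408% and 0.703% with the 2 filters.

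Further genes of actin regulation, listed for their role, gave 1 call. Of 86 listed genes 72 were tested, and edgeR called 0 higher and 1 lower, against 0.844% and 0.565% of all tested genes. At an unadjusted p under 0.05 there were 13 higher and 6 lower, against 7.13% and 6.67% of all tested genes, and the median log2 change was 0.05. The gene called lower was Ssh2, a phosphatase that activates cofilin, which stood at 801, 780, 724 and 830 CPM in plasma-negative libraries and at 518, 542, 595 and 561 CPM in plasma-positive ones. Its groups did not overlap, and the log2 change was -0.50, SE 0.08 (edgeR, adjusted p = 0.0111). Its exon length is 18519 bases, and with the length and GC offset its change was -0.09 (edgeR, adjusted p = 0.837). Median exon length in this list was 5670 bases, against 3329.5 in the 56 members and 3975.5 in all tested genes.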

How the data were processed

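Sorted microglia gave Smart-seq2 libraries without molecular identifiers, per the labels' protocols. The authors deposited raw read counts for each gene, and the file headers name top-hit alignments as their source. The authors also deposited RPKM values, scaled by exon length and library size, for the same genes, per the file headers. STAR, HTSeq, Trim Galore, bcl2fastq and mm10 are named, without versions, in the submitters' processing notes. The strand setting and the treatment of multi-mapping reads are not given in the sources used here.

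Of 35583 genes, 35546 were matched by identifier to GENCODE M21 for merged exon length, GC content of the longest transcript, exon overlap and shared 50-base words. The test was that of edgeR 4.0.16 under R 4.3.3 (TMM, default expression filter, quasi-likelihood F test of group), with Benjamini-Hochberg adjustment over all 13277 tested genes and a threshold of 0.05. The SE was taken from the log2 change and the root of its F. The length and GC offset is a loess fit per library (span 0.3, genes at 5 CPM or more). Ratios used counts plus 1. DESeq2 1.42.0, limma 3.58.1 (voom, and log2 of RPKM plus 1 or 0.1), other scalings and filters, a replicate block and leaving out each library were alternatives. Leaving out plasma-positive replicates 2 and 3 together was chosen after seeing the data. The edgeR test, with and without the offset, was tested on simulated data. The members and lists were chosen with earlier results of these data known, so no test over the list is given.

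Values in every library are given for 18 members, 17 fixed by name (of which 6 were called) and Arpc4 as a called member. Of other actin genes, up to 4 called per direction are named. Further genes are named as examples. Deviations of same-numbered libraries from their group means correlated at 0.0119, 0.0126, 0.0109 and 0.0315, and were not taken as pairs. Counting error only is covered by read depth, since amplified reads are not independent molecules.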

Additional observations from a re-analysis of the deposited data

Results flagged for a closer look

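The level of each of the 56 genes was screened in both groups of 4 libraries for a library whose gap to the nearest other was, as a share of the group's range, above Dixon's critical value. This occurred in 8 of 112 groups, where chance gives about 5%. In plasma-negative replicate 4, Wasf2 was low at 383 CPM against 536 in the nearest library, Arhgdib was low at 236 CPM against 304, and Rhoa was high at 424 CPM against 319. Cfl1 was high at 471 CPM in plasma-negative replicate 2, against 424, and Brk1 was low at 204 CPM in plasma-negative replicate 3, against 234. In plasma-positive libraries Cyfip1 was low at 967 CPM in replicate 3, against 1016, Abi1 was high at 189.9 CPM in replicate 4, against 170.4, and Ezr was high at 20.5 CPM in replicate 1, against 12.6.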

How the results depend on the processing

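Of 1176 recomputed log2 changes of the 56 members, 1065 kept their direction and side of the threshold, and 48 members kept their sign in every fit. The 7 members called higher became 4 with library totals only, without a filter and with the replicate block, 12 with DESeq2 and with log2(RPKM + 0.1), 13 with limma-voom and with log2(RPKM + 1), 1 with the length and GC offset, and 0 with that offset and the replicate block. Leaving out each library gave 4 to 9, and leaving out plasma-positive replicates 2 and 3 together gave 1 (Actb), with 2 libraries left in that group and log2 changes of 0.68 for Cfl1, 0.57 for Tmsb4x and 0.54 for Pfn1, against 0.72, 0.55 and 0.56 with all. Members called lower were 0 in each fit. Over all genes the 187 calls became 694 with DESeq2, 442 with limma-voom, 447 and 432 with log2(RPKM + 1) and log2(RPKM + 0.1), 74 with the replicate block, 26 with the offset, 5 with the offset and the block, 66 to 203 without each library, and 15 without both plasma-positive libraries. The split of 112 higher and 75 lower became 64 and 163 with library totals only, 388 and 59 with log2(RPKM + 1), 370 and 62 with log2(RPKM + 0.1), and 332 and 362 with DESeq2. The median of all genes moved to -0.11, 0.11 and 0.16 in the first 3 of these. The causes were not tested.

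Signs turned for 8 members, of which Arpc1a, at 0.28 with all libraries, lay farthest from 0. Actr2 had 0.024 with upper-quartile factors, 0.0035 without a filter, 0.11 with either RPKM scale, 0.062 with the offset, 0.048 with the offset and the block, and 0.17 without both plasma-positive libraries. Cap1 had 0.0054 with upper-quartile factors, 0.096 with log2(RPKM + 1) and 0.10 with log2(RPKM + 0.1). With library totals only, Arpc5l had -0.066, Wipf1 -0.065, Nckap1l -0.076 and Tln1 -0.061. Vasp had -0.11 with the offset and -0.096 with the block added. Without both plasma-positive libraries Arpc1a had -0.035, Arpc5l -0.031 and Wipf1 -0.017. Without each library in turn, ranges were -0.13 to 0.093 for Actr2, -0.20 to 0.16 for Cap1, -0.12 to 0.23 for Arpc5l, -0.0014 to 0.14 for Wipf1, -0.045 to 0.093 for Nckap1l and -0.023 to 0.14 for Tln1. For the ratios they were -0.11 to 0.22 for Arpc1b to Arpc1a, -0.14 to 0.12 for Capza1 to Capza2, -0.19 to 0.14 for Msn to Rdx and -0.14 to 0.23 for Myl12a to Myl12b. With the replicate block, exact sign-flip p for the ratios cannot go below 0.125 with 4 pairs, so none could pass. Actn1 had at most 37 counts per library, and Gsn went from 1 count in plasma-positive replicate 4 to 413 in replicate 3.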

Other observations

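Lists of markers for other cell types gave these summed levels. The 6 border macrophage markers summed to 0.881 to 3.61 CPM in plasma-negative and 1.76 to 15.8 CPM in plasma-positive libraries, with Lyve1, Cd163 and F13a1 at 0 counts throughout. The 5 T and NK cell markers were at 0 in plasma-negative libraries and at most 1.17 CPM in plasma-positive ones. The 6 endothelial markers summed to 27.3 to 52.7 and 20.4 to 64.4 CPM. Mural cell markers reached 17.8 CPM, fibroblast markers 13.04 CPM and erythrocyte markers 4.57 CPM, each in plasma-positive replicate 3. The 3 B cell markers summed to 30.1 to 85.0 and 54.0 to 94.5 CPM, nearly all of it Cd79b, with Ms4a1 at 0. Of the markers in these 7 lists that passed the expression filter, none was called by edgeR.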
